A study of Mus musculus with 2 samples.

Results

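This account covers 38 genes of mitochondrial dynamics, biogenesis and mitophagy in Neuro2a cells, a mouse neuroblastoma line, after knockdown of Cpeb1, which encodes an RNA-binding protein of cytoplasmic polyadenylation. RNA came from 1 culture transfected with control siRNA (siControl) and 1 culture transfected with Stealth siRNA against the Cpeb1 coding region (siCPEB1). The labels give 24 h of siRNA treatment for both, in otherwise untreated cells of the same line. The RNA of each culture was hybridized to 1 Affymetrix Mouse Genome 430 2.0 array, with 100 ng of total RNA per array. The genes were chosen by name, with earlier results of these data known. Every probe set whose platform annotation gives only 1 of these symbols was taken. Of the 38 genes, 37 had at least 1 such probe set among the 18193 genes with 1 symbol on the array, and these 37 genes had 88 probe sets.

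Mitochondria fuse and divide continuously. Mitofusins join the outer membranes and OPA1 joins the inner membranes, whereas the GTPase DRP1 (Dnm1l) is brought to the outer membrane by adaptors and constricts the organelle. New mitochondria depend on nuclear transcription factors and their PGC-1 coactivators, and on a small set of nuclear-encoded proteins that copy and transcribe mitochondrial DNA. In neurons, adaptor proteins couple mitochondria to motors on microtubules, and damaged organelles are marked with the help of the kinase PINK1 for removal by autophagy.

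The values are MAS5 signals, a background-subtracted brightness per probe set on a linear scale. The log2 ratio is that of the siCPEB1 signal over the siControl signal, so that a positive value means a higher signal in siCPEB1. Each condition had 1 array, so no p-value or replicate SD can be given, and a ratio describes these 2 arrays and not the conditions. The spread that can be measured is between probe sets of the same gene, which on the log2 scale had a pooled SD of 0.37 over 5531 genes. This SD does not contain the spread between cultures. A probe set was counted if it was at or above the array median in siControl (21.0) or siCPEB1 (21.6) and no lower than the 25th percentile (5.07 and 5.62) in the other. Of the 88 probe sets, 72 passed and 16 did not. They gave 35 measured genes, each represented by 1 probe set, and 34 of the 35 reached the median in both arrays. Ppargc1a and Esrrg had probe sets but none that passed.

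Cpeb1 itself was 7.86-fold lower in siCPEB1 (302 and then 38.5) at its 1 probe set, while Fmr1, the mRNA at the centre of the study, had log2 ratios of 0.21, -0.10 and 0.33 at its counted probe sets. Of 14 sympathetic neuron and neuroblastoma markers on the array, 12 reached the array median in both arrays, while the catecholamine enzyme Th and the neurofilament Nefm did not. The summed signal of these 14 markers, with 1 probe set each, was 14866 in siControl and 19932 in siCPEB1. Of the 12 that were measured, 6 were higher by more than 2-fold (50%), beside 5.15% of all genes measured. Among the 6, Chgb (log2 ratio 1.04) and Dbh (1.02) lay just past 2-fold, and a brighter counted Dbh probe set had 0.81. The 2 measured markers with a lower signal in siCPEB1 were Gata2, from 584 to 416, and Stmn2, from 2556 to 2080. Of the markers of other cells, 2 of 6 fibroblast, 1 of 4 glial and 1 of 5 endothelial markers reached the median in each array, and of 6 haematopoietic markers 1 did in siControl and 2 in siCPEB1. The summed signal went from 174 to 381 for fibroblast, from 94.2 to 104 for glial, from 84.5 to 93.2 for haematopoietic and from 67.7 to 109 for endothelial markers. For Mbp the glial sum held the brightest probe set, which went from 58.1 to 54.8. The dimmer counted Mbp probe sets had log2 ratios of 0.55, 0.98, 1.10 and 1.71. The largest share of the fibroblast sum in siCPEB1 came from the collagen chain Col1a2, with 42.3 in siControl and 309 in siCPEB1 at its brighter probe set and 7.75 and 113 at the other counted one, whereas Pdgfrb had 97.1 and 26.9. Csf1r and Tyrobp of the haematopoietic list went from 9.26 to 22.1 and from 9.62 to 22.8, near the median, and a second counted Csf1r probe set from 39.5 to 43.1. The markers below the median in both arrays included Col1a1, Col3a1, Gfap, Sox10, Ptprc and Cdh5. The part of these markers in the results was not tested, and in such bulk RNA fewer cells of a type and less RNA per cell cannot be told apart.

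Most of the 35 measured genes had close signals in siControl and siCPEB1. Of the 35, 1 gene was higher by more than 2-fold and 1 was lower. The microtubule-associated scaffold gene Mtus1 was 2.36-fold higher, and Gdap1, an outer membrane protein whose mutation causes Charcot-Marie-Tooth neuropathy, was 2.86-fold lower. Over all 11554 genes measured in the same way, 5.15% lay above and 3.48% below the 2-fold lines, against 2.86% in each direction among the 35. At the level of probe sets, 2 of the 72 were higher and 3 were lower, beside 4.49% and 4.04% of all 23655 probe sets that passed. These shares lie close to those of the whole array.

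As a group the 35 genes had a median log2 ratio of 0.10, beside 0.05 for all genes measured. A log2 ratio above 0 was found for 23 of 35, which is 65.7%, compared with 54.1% of all genes. Among the 23, Rhot1 rested on a dim probe set that passed the filter only through its higher siCPEB1 signal. Mfn1 and Pprc1, just above 0, fell below it with the arrays scaled to the same median. With a threshold of 1.5-fold, 4 of 35 were higher (Mtus1, Mtfr2, Esrra and Mief1) and 2 were lower (Gdap1 and Gabpa), beside 13.7% and 10.9% of all genes. Mief1 and Gabpa lay close to this threshold. With the mean of the counted probe sets, Mief1 (0.37), Esrra (0.32) and Gabpa (-0.38) were within it. The log2 ratio lay within 0.37 of 0, the SD between probe sets of the same gene, for 23 of the 35 genes (65.7%) and for 56.1% of all genes. Mtus1, Mtfr2 and Esrra are among the genes that the study chose for qPCR from its microarray results in cells with Fmr1 knockdown. By qPCR the study reports significantly higher levels of these mRNAs in siCPEB1-treated than in siControl-treated cells. Because the choice came from the same series, the array values of these 3 genes are not independent evidence of a direction. Without these 3 genes the median of the other 32 was 0.08, and none of the 32 was higher by more than 2-fold.

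**Figure D1:**
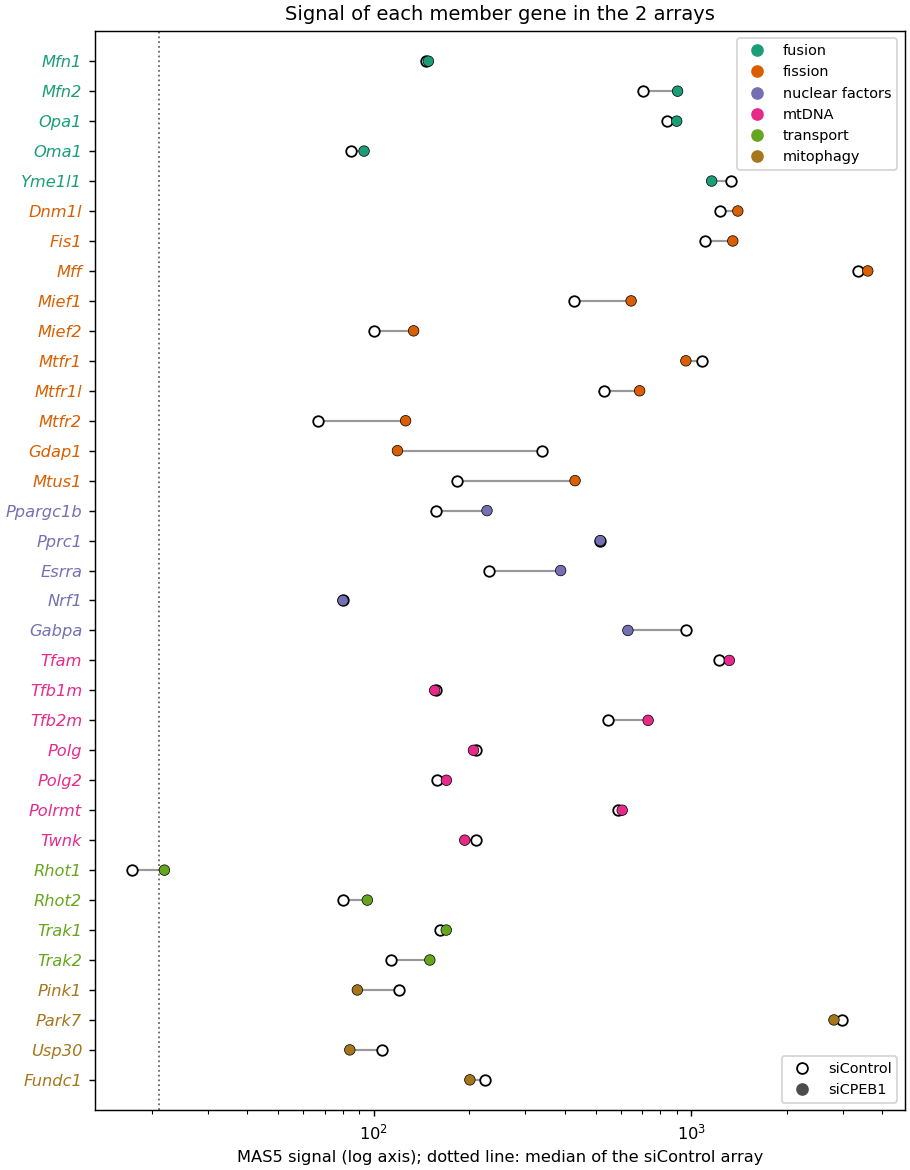
MAS5 signal (x axis, log scale) of the representative probe set of each of 35 genes in siControl (open circles) and siCPEB1 (filled circles, coloured by role), 1 array each, with the siControl array median as a dotted line. Signals are comparable along a row and not between rows; the widest gaps are those of Gdap1, from 340.2 down to 119, and Mtus1, from 183 up to 431.

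**Figure D2:**
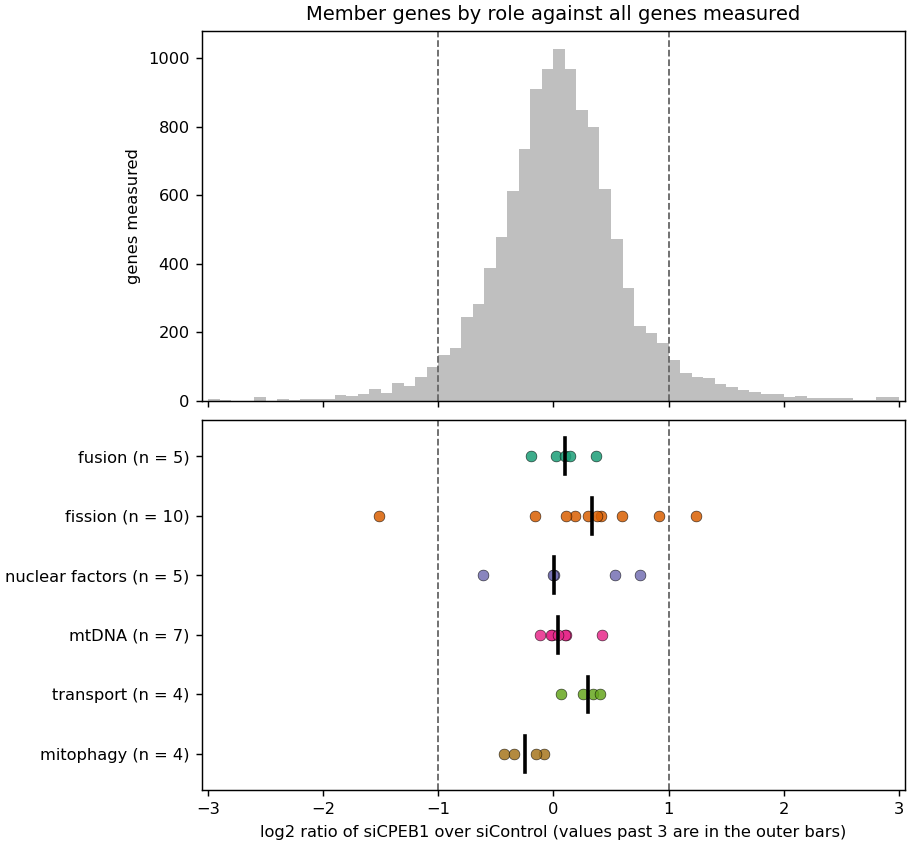
Log2 ratio of siCPEB1 over siControl (x axis) for all 11554 genes measured (upper panel, number of genes per bar) and for 35 genes by role (lower panel, points, with a black line at the median of the role), with dashed lines at 2-fold. The points of 5 roles lie between the dashed lines, and in the fission row Gdap1 lies below and Mtus1 above them.

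Among the genes of fusion and inner membrane processing, none of 5 was past 2-fold and the median log2 ratio was 0.10. Mfn1, a mitofusin of the outer membrane, had 147 in siControl and 149 in siCPEB1 (log2 ratio 0.02, and -0.02 with the arrays scaled to the same median), and the other counted probe set had a log2 ratio of 0.19. A further Mfn1 probe set went from 2.65 to 17.9, both below the array median, and this gives no fold. The second mitofusin, Mfn2, which also tethers mitochondria to the endoplasmic reticulum, had 703 and 906 (log2 ratio 0.37), the highest ratio of the 5. Neither mitofusin differed by more than the SD between probe sets of the same gene, but Mfn2 lay close to it. With quantile normalization Mfn2 had 0.39, just past this SD.

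Opa1, the GTPase of inner membrane fusion and cristae shape, had 839 in siControl and 901 in siCPEB1 at its brightest probe set (log2 ratio 0.10). Its other probe sets went from 111 to 80.6 (log2 ratio -0.46) and from 305 to 197 (log2 ratio -0.63). The Opa1 probe sets therefore disagreed in direction, and the mean over all 3 was -0.33. The proteases that cleave OPA1 were also close in the arrays. Oma1, the stress-activated protease, had 84.6 and 93.2 (log2 ratio 0.14), while the ATP-dependent protease gene Yme1l1 had 1332 and 1160.3 (log2 ratio -0.20) and log2 ratios of -0.49 and -0.28 at its other counted probe sets. All 3 counted probe sets of Yme1l1 were thus below 0, between -0.49 and -0.20.

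The 10 genes grouped under fission, where Mtus1 was placed although it is known for mitochondrial morphology and not as a fission factor, had the widest range of any role, from -1.52 to 1.24, with a median of 0.33. The log2 ratio was above 0 for 8 of 10, also with 5 other scalings and constants. Dnm1l, the DRP1 GTPase that constricts the organelle, had 1229 in siControl and 1403 in siCPEB1 (log2 ratio 0.19), with 0.09 and -0.05 at its other counted probe sets. The core GTPase of fission was therefore at nearly the same signal in both arrays.

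The outer membrane adaptors that recruit DRP1 all had ratios above 0, and none was past 2-fold. Fis1, a small tail-anchored protein, had 1102 in siControl and 1353 in siCPEB1 (log2 ratio 0.30), and its other probe set, of a kind that can bind related transcripts, had a log2 ratio of 0.62. Mff, the main DRP1 receptor in many cells, had 3343 and 3600.5 (log2 ratio 0.11), with 0.21 and -0.13 at its other counted probe sets. All 3 of these Mff probe sets carry a suffix. That of the probe set with 0.21 (_a_at) is for transcript variants, and that of the others (_x_at) is for possible binding to related transcripts.

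Mief1, which encodes the adaptor MiD51, had 429 in siControl and 647 in siCPEB1 (log2 ratio 0.59), and 0.15 at the other probe set. Mief2, which encodes MiD49, had 101 and 134 (log2 ratio 0.41) at its 1 probe set. At the representative probe sets the largest ratio among these adaptors was that of Mief1, past 1.5-fold, as was the less specific Fis1 probe set.

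The 3 genes of the mitochondrial fission regulator family differed from each other. Mtfr1 had 1078 in siControl and 962 in siCPEB1 (log2 ratio -0.16), and the other probe set stood at 0.08. Mtfr1l had 531 and 688 (log2 ratio 0.37) and was also higher at the others, from 40.9 to 56.8 (0.47) and from 228 to 374 (0.71). Mtfr2, located at chr10:20344653-20361669 of GRCm38, had 66.8 and 126 (log2 ratio 0.92), which is 1.89-fold and rests on 1 probe set. In this family Mtfr1 was near 0 and the other members were above it, with Mtfr2 just inside the 2-fold line and at percentile 93.7 of all genes measured.

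Gdap1 had the lowest ratio of the 35 genes. It encodes a glutathione transferase-like protein of the outer membrane that promotes fission, is expressed mainly in neurons, and lies at chr1:17145373-17164271. Its 4 probe sets went from 340.2 to 119, from 204 to 52.3, from 50.5 to 28.4 and from 21.4 to 16.3. These are log2 ratios of -1.52, -1.96, -0.83 and -0.39. All 4 were lower in siCPEB1, the 2 brightest by more than 2-fold (2.86- and 3.90-fold), and the dimmest was below the array median in siCPEB1. The representative probe set lay at percentile 0.913 of all genes measured. Gdap1l1, the paralog of Gdap1, had log2 ratios of -0.40 and -0.48 at its 2 probe sets.

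Mtus1 had the highest ratio. It encodes a microtubule-associated scaffold protein found in part at mitochondria, and lies at chr8:40990912-41133983. Its probe sets went from 183 to 431, from 300.3 to 699 and from 129.6 to 212. The log2 ratios were 1.24, 1.22 and 0.71, so that all 3 were higher in siCPEB1 and 2 of the 3 were past 2-fold (2.36- and 2.33-fold). The representative probe set lay at percentile 96.8 of all genes measured.

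**Figure D3:**
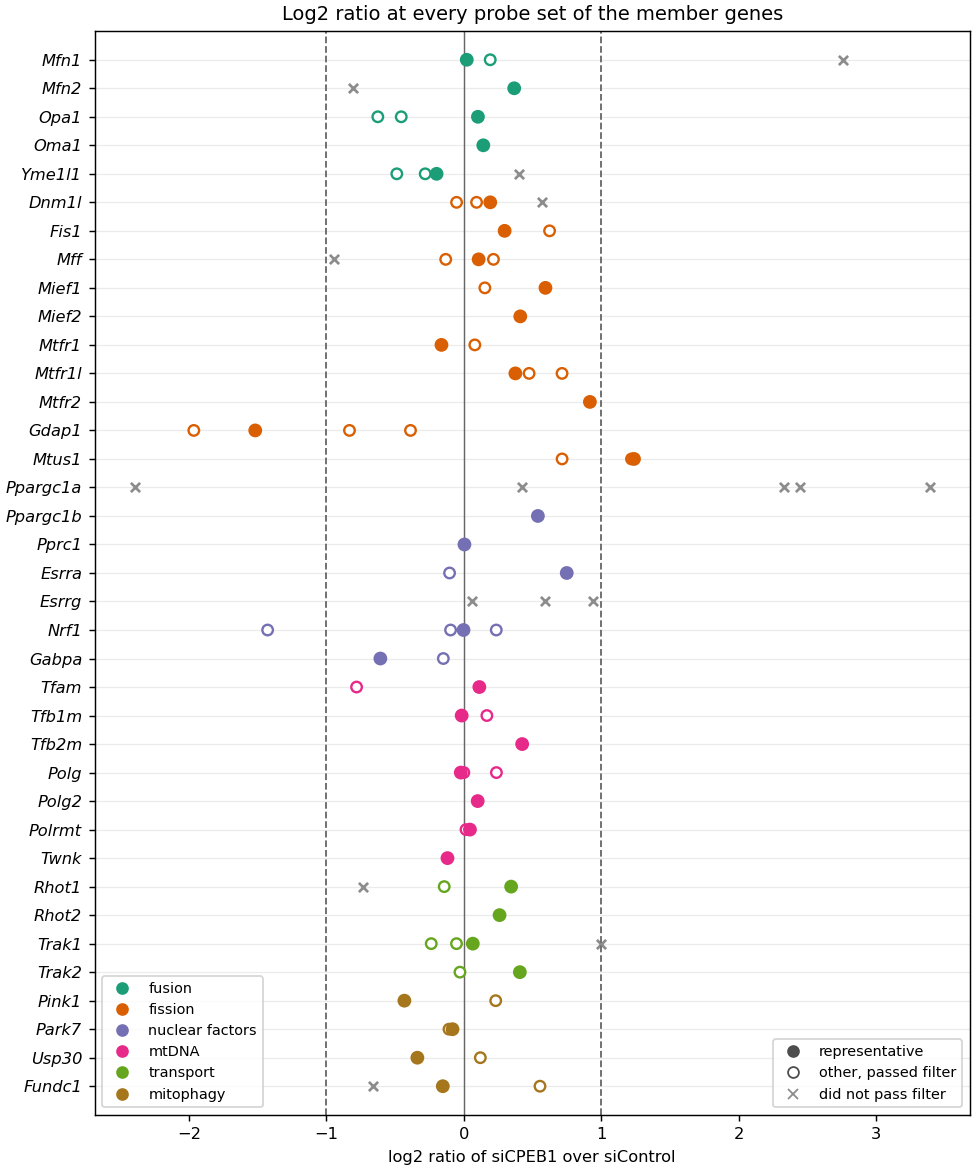
Log2 ratio of siCPEB1 over siControl (x axis) at each of the 88 probe sets of 37 genes (rows), with filled circles for the representative probe set, open circles for other probe sets that passed the signal filter, crosses for those that did not, and dashed lines at 2-fold. All 4 circles of Gdap1 lie left of 0 and all 3 of Mtus1 right of it, while Opa1, Tfam and Nrf1 have circles on both sides.

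Nuclear coactivators and transcription factors of mitochondrial biogenesis had a median log2 ratio of 0.0036 over 5 measured genes, none of them past 2-fold. Their ratios were spread on both sides of this median, from -0.61 (Gabpa) to 0.75 (Esrra). Ppargc1a, the inducible coactivator PGC-1alpha, had 5 probe sets with signals between 0.208 and 3.36 in siControl and between 0.639 and 5.02 in siCPEB1. All of them lay below the 25th percentile of both arrays, so no fold is given and a low level cannot be told from background. Esrrg, an orphan nuclear receptor and PGC-1 partner, was likewise below the median at each of 3 probe sets, the brightest with 15.7 and 16.3.

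Of the other coactivators, Ppargc1b, which encodes PGC-1beta, had 157 in siControl and 227 in siCPEB1 (log2 ratio 0.54), and Pprc1 had 516 and 517 (log2 ratio 0.0036). The estrogen-related receptor gene Esrra, at chr19:6910977-6922048, had 231 and 388 (log2 ratio 0.75), which is 1.68-fold. Its other probe set went from 22.6 to 21.1 (log2 ratio -0.10) with signals near the array median, so the higher ratio of Esrra rests on 1 probe set, and the mean of both was 0.32.

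Nrf1, which encodes nuclear respiratory factor 1, had 80.2 in siControl and 80.0 in siCPEB1 (log2 ratio -0.0030). Of its other probe sets, those with signals of 119.9 and 112 and of 24.1 and 28.4 had log2 ratios of -0.10 and 0.23, and a dim one went from 44.1 to 16.4 (log2 ratio -1.43). With the siCPEB1 signal of the last set at the array median, this is at least 2.04-fold lower, and the other 3 Nrf1 probe sets did not show it. Gabpa, the DNA-binding subunit of nuclear respiratory factor 2, went from 963 to 632 (log2 ratio -0.61), which is 1.52-fold lower, and from 266 to 239 (log2 ratio -0.15) at the dimmer of its probe sets. Both Gabpa probe sets were below 0, and the first lay at percentile 10.2 of all genes measured.

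Since the DNA-binding factors are themselves among the genes, the promoters of the group were searched for the letters these factors read, in RefSeq sequences of GRCm38.p6 from 250 bases before to 50 after each annotated start. The table held 33 of the 38 genes, and Gdap1, Mtus1, Mtfr1 and Ppargc1b were among those not in it. Both strands were searched for CGCATGCG (the palindromic core of NRF1 sites), CCGGAAGT (GABPA and other ETS factors) and TCAAGGTCA (estrogen-related receptors), and no site of one overlapped a site of another in these genes. CGCATGCG was found in 4 of the 33 genes (12.1%), in 1.87% of all 32851 promoters and in 4.49% of 9375 genes that were also measured on the array. The stretches of 30 bases around it are shown 5′ to 3′ on the strand of the gene, with the match in capitals, because they are where these promoters carry the NRF1 letters.
Tfb2m, chr1:179546246-179546275, minus strand: gctaggtcgttCGCATGCGccattcgtaat
Mtfr2, chr10:20347681-20347710, plus strand: ggggcacggtgCGCATGCGcctttcgaatg
Opa1, chr16:29579265-29579294, plus strand: gtggctccccgCGCATGCGcatgtcatccg
Gabpa, chr16:84835105-84835134, plus strand: actgcactgtaCGCATGCGtattctggcct

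The 4 genes with this match had log2 ratios of 0.42 (Tfb2m), 0.92 (Mtfr2), 0.10 (Opa1) and -0.61 (Gabpa), on both sides of 0. CCGGAAGT was found in 7 of the 33 genes (21.2%), in 3.89% of all promoters and in 9.31% of the measured genes. The match nearest upstream of an annotated start is given for each of the 7, in the same way.
Mfn1, chr3:32529427-32529456, plus strand: gatccgaagcgCCGGAAGTagccgccccta
Fis1, chr5:136953246-136953275, plus strand: ggaggcaccacCCGGAAGTtcaggcttccc
Usp30, chr5:114100255-114100284, plus strand: cggtgtgactaACTTCCGGtccgtcctcct
Polg, chr7:79466293-79466322, minus strand: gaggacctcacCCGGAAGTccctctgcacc
Tfam, chr10:71238073-71238102, minus strand: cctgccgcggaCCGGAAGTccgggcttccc
Mief1, chr15:80234004-80234033, plus strand: ggaggggccgaCCGGAAGTgcttccgcctc
Twnk, chr19:45006436-45006465, plus strand: actaaccggtgACTTCCGGttccggggttg

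In Usp30 and Twnk the match lies on the opposite strand and reads ACTTCCGG. The matches shown for these 7 genes begin between 18 and 111 bases before the start. The log2 ratios of the 7 genes ran from -0.34 (Usp30) to 0.59 (Mief1), again on both sides of 0, while the Gabpa signal itself was lower in siCPEB1. None of the 33 genes held TCAAGGTCA in these windows, which 0.423% of all promoters did. Over the 9375 measured genes in the promoter table, those with the CCGGAAGT match had a median log2 ratio of 0.10 and those without it 0.05, and for CGCATGCG the medians were 0.08 and 0.05. A match is a run of letters and not a measured binding site.

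The 7 genes of mitochondrial DNA transcription and replication lay near 0, with log2 ratios between -0.12 and 0.42 and a median of 0.04, and none was past 2-fold. Tfam, which packages and bends mitochondrial DNA and activates its promoters, had 1221 in siControl and 1319 in siCPEB1 (log2 ratio 0.11). Its dimmer probe set went from 79.0 to 46.0 (log2 ratio -0.78), opposite in direction, and the mean of both was -0.33. Tfb2m, the initiation factor that melts the promoter, had the highest ratio of the 7, with 546 and 732 (log2 ratio 0.42). Tfb1m, a related methyltransferase of the small ribosomal RNA, had 157 and 156 (log2 ratio -0.02), and the other probe set stood at 0.17.

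The polymerases differed little. Polg, the catalytic subunit of the DNA polymerase, had 209.5 in siControl and 206 in siCPEB1 (log2 ratio -0.02), with 0.24 and -0.0007 at its other counted probe sets. Polg2, the accessory subunit, had 158 and 169 (log2 ratio 0.10). Polrmt, the mitochondrial RNA polymerase, had 588 and 606 (log2 ratio 0.04), with 0.02 at the dimmer probe set. Twnk, the helicase Twinkle at the replication fork, had 210.3 and 194 (log2 ratio -0.12). Of these 4 genes of the copying machinery none moved by more than 0.12 on the log2 scale at its representative probe set.

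The 4 transport genes had log2 ratios between 0.06 and 0.41, with a median of 0.30 and none past 2-fold. Rhot2, which encodes the outer membrane GTPase Miro2, had 79.8 in siControl and 95.5 in siCPEB1 (log2 ratio 0.26). Rhot1, which encodes Miro1, was represented by a dim probe set with 17.3 and 21.9 (log2 ratio 0.34), whereas its much brighter probe set, which covers transcript variants, had 458 and 415 (log2 ratio -0.14). The dim probe set was below the array median in siControl and passed the filter only through its siCPEB1 signal, whereas the bright one reached the median in both arrays. The direction of Rhot1 therefore depends on the probe set. Trak1, an adaptor that links Miro to kinesin, had 162 and 169 (log2 ratio 0.06), with -0.05 and -0.24 at the other counted probe sets. Trak2, the second adaptor, had 113 and 150.2 (log2 ratio 0.41), with -0.03 at a probe set near the array median. With the mean over the counted probe sets of each gene, 3 of 4 transport genes were above 0 and the median was 0.14.

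The 4 measured mitophagy genes all had log2 ratios below 0 at the representative probe set, with a median of -0.25 and none past 2-fold. Pink1, the kinase that accumulates on damaged mitochondria, had 119.9 in siControl and 88.8 in siCPEB1 (log2 ratio -0.43), but 58.0 and 68.1 (log2 ratio 0.23) at another. Usp30, a deubiquitinase of the outer membrane that opposes mitophagy, had 106 and 84.1 (log2 ratio -0.34), but 0.12 at another. Fundc1, a mitophagy receptor, had 223 and 201 (log2 ratio -0.15), but went from 108 to 158 (log2 ratio 0.55) at another. Park7, which encodes the redox sensor DJ-1, had 2984 and 2817 (log2 ratio -0.08), with -0.11 at another. Of these 4 genes only Park7 had all of its counted probe sets on 1 side of 0, and with the mean over the counted probe sets the median of the 4 genes was -0.10.

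Disagreement between probe sets was common in the whole group. Of 25 genes with 2 or more counted probe sets, 6 had all of them above 0, 4 had all of them below 0 and 15 had them on both sides. The probe sets of these 25 genes differed with a pooled SD of 0.40, close to the 0.37 over all genes. The genes with every counted probe set above 0 were Mfn1, Fis1, Mief1, Mtfr1l, Mtus1 and Polrmt, and those with every one below 0 were Yme1l1, Gdap1, Gabpa and Park7.

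**Figure D4:**
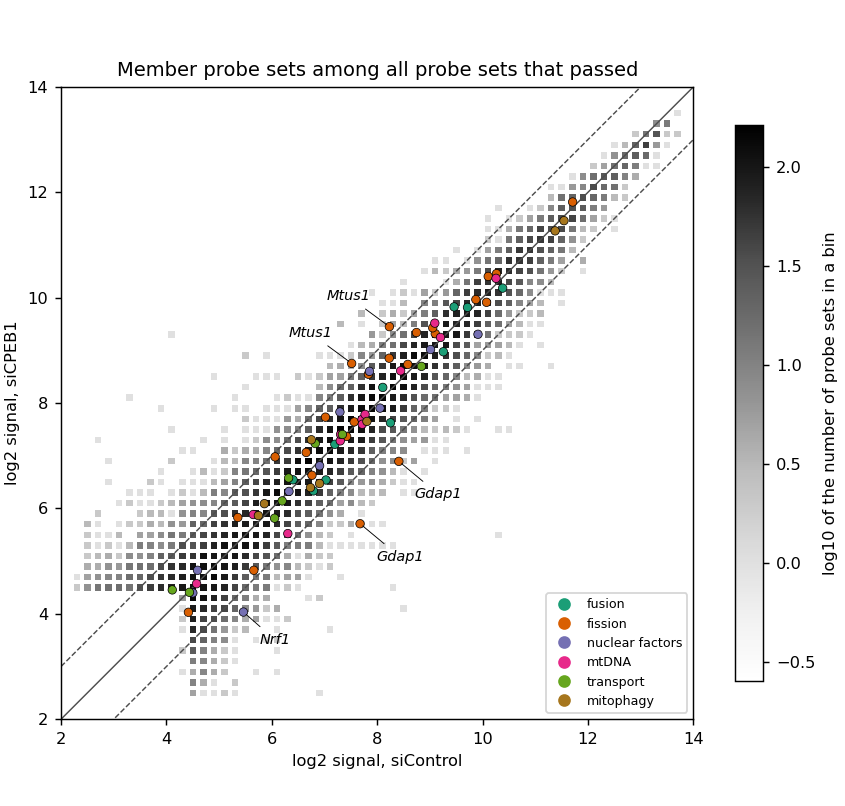
Log2 signal in siControl (x axis) and siCPEB1 (y axis) of the 72 probe sets of the group that passed the filter (coloured by role) over all 23655 passing probe sets (grey squares, darker where a bin holds more), with the line of equal signal and dashed lines at 2-fold. Of the 72, 2 of Mtus1 lie above the upper dashed line, and 2 of Gdap1 and 1 of Nrf1 lie below the lower one; the straight edges at the lower left come from the filter.

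Further genes of the same processes, in 5 lists of 94 symbols, were measured for context. Of these, 79 genes passed the filter, with a median log2 ratio of 0.01. Past 2-fold at the representative probe set, 1 was higher and 2 were lower (1.27% and 2.53%), beside 5.15% and 3.48% of all genes measured. Past 2-fold among their 183 counted probe sets were 6 with a higher and 5 with a lower signal in siCPEB1. These are 3.28% and 2.73%, beside 4.49% and 4.04% of all probe sets that passed. Mtfp1, an inner membrane protein that promotes fission, went from 214 to 42.0 at its 1 probe set, which is 5.09-fold lower, and none of the other 17 measured genes of fusion, fission and shape was past 2-fold at the representative probe set. Miga2, an outer membrane protein that promotes fusion, named after its values were seen, went from 239.7 to 437 there (1.82-fold higher), and from 68.3 to 155 (2.28-fold) and from 170.0 to 342 (2.01-fold) at its other counted probe sets. Gdap1 and Mtfp1, which both promote fission, were lower, and they are set together here because of the size of their ratios. Gdap1 is itself among the 10 genes grouped under fission above, of which 8 had ratios over 0, beside 54.1% of all genes measured. A common direction of fission genes was not tested. Pgam5, a mitochondrial phosphatase that dephosphorylates FUNDC1, went from 1198 to 533, which is 2.25-fold lower, and the autophagy kinase gene Ulk1, which phosphorylates FUNDC1, went from 78.4 to 175, which is 2.23-fold higher, and 0.52 on the log2 scale at another. The 14 mitophagy genes of this list had a median of 0.14, and the 18 of fusion, fission and shape one of -0.03. None of 13 coactivator partners, 25 mitochondrial DNA and RNA genes or 9 transport genes was past 2-fold at the representative probe set, with medians of 0.01, 0.01 and -0.25.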

How the data were processed

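The deposited values are signals per probe set, linear intensities that the authors obtained with MAS5 in Affymetrix Expression Console (named in the submitters' processing notes). The versions and the scaling target were not given in the sources used here. Detection calls were not used. The log2 ratio was taken from the signals as deposited, with no further scaling, after 64 control probe sets had been left out, with 45037 remaining. Symbols came from the platform annotation, updated to RefSeq names (1 symbol for 34945 probe sets, several for 932, none listed for 9160). A gene was represented by 1 passing probe set, by preference without the suffix _x_at, _s_at or _a_at, and then by the brightest. Every one of the 38 genes was to be named, of which 1 is not reported here, and from each further list up to 3 genes past 2-fold, by size. The members and lists were chosen with earlier results of these data known. The threshold of 1.5-fold and the median without 3 genes were added later. With 1 array per condition there was no test, and the number of arrays limits the precision. Alternatives were 4 other scalings, 16 added to the signals, 4 filters and 3 choices of probe sets. The steps were checked on simulated data with 4-fold changes in bright probe sets, which does not cover smaller changes or dim probe sets. The tools were Python 3.11.15, numpy 2.4.6, pandas 2.3.3, statsmodels 0.14.6 and matplotlib 3.10.9.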

Additional observations from a re-analysis of the deposited data

How the results depend on the processing

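No paired analysis was possible because each condition had 1 array, and no array could be left out. Under all 12 alternatives Mtus1 was past 2-fold higher and Gdap1 past 2-fold lower, and the median log2 ratio of the group stayed between 0.06 and 0.11. With no filter, Ppargc1a, at signals below the 25th percentile, made it 2 genes higher, and 6 probe sets of the group were higher in place of 2, against 1 without suffixed probe sets. At 1.5-fold, 4 genes were higher and 2 were lower, of which Mief1, Esrra and Gabpa were within 1.5-fold with the mean of their counted probe sets. Counts over the whole array varied more, from 1061 higher and 956 lower to 450 and 460 with 16 added, to 551 and 596 with the median reached in both arrays, and to 6405 and 5326 with no filter. Scaled by the array median they were 972 and 1071. Of 210 values of single genes under 6 alternatives, 3 moved by more than 0.37, those of Opa1 (-0.33), Esrra (0.32) and Tfam (-0.33) with the mean of their counted probe sets. The cause was not tested. With the arrays scaled by the median, 3 of 5 fusion genes were above 0 in place of 4, and the median of the coactivators and nuclear factors was -0.04. With 1 array per condition, no spread between cultures could be measured. The 16 probe sets that did not pass were below the array median in both arrays. Their distance from the background was not measured, and no fold is given for them.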
